A study of Mus musculus with 6 samples.

Results

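Keratins are the proteins of the intermediate filaments of epithelial cells, and their genes were followed here in mouse colon tumours. Every gene whose symbol begins with Krt and a digit was taken, without the keratin-associated Krtap genes, which gave 52 of the 19938 genes measured. The pseudogene Krt8-ps and the hair keratins Krt81, Krt83 and Krt85 were not analysed here. The data were arrays of 6 colon tumours, 3 of each genotype. In the 3 Dnmt1chip/c; ApcMin/+ tumours, called Dnmt1chip/c below, 1 allele of the maintenance DNA methyltransferase gene Dnmt1 was the hypomorphic chip allele and the other was the knockout allele c; the design text describes this genotype as having less methylation at pericentromeric satellite repeats. The 3 Dnmt1chip/+; ApcMin/+ tumours, called Dnmt1chip/+ below, had the chip allele and a wild-type allele, with genomic methylation described as that of wild-type mice. All the mice carried the ApcMin mutation, which truncates the tumour suppressor Apc, were hybrids of C57BL/6 and 129Sv4, received 2% dextran sodium sulfate, a colon irritant, from 6 weeks of age, and were 20 weeks old at tumour collection. The sample descriptions give all 3 Dnmt1chip/c tumours 1 shared number, and the same holds for 2 of the 3 Dnmt1chip/+ tumours, so tumours may share a mouse and the p-values measure only the spread between these tumours.

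Keratin filaments are built from obligate pairs of an acidic type I and a basic type II keratin. Simple epithelia such as the gut lining use the type II proteins Krt8 and Krt7 with the type I proteins Krt18, Krt19 and Krt20, of which Krt20 is a product of mature surface cells in the intestine. Stratified epithelia use other pairs, such as Krt5 with Krt14 in the basal layer of the skin and Krt6a with Krt17 or Krt16 after wounding, and hair shafts and their sheaths use keratins of their own.

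Values were taken as log2 values. The median of the 6 arrays is 0 for each probe set, so they show differences between tumours and keep no level. Where the groups do not overlap, centring makes the 2 values that face each other across the gap equal and opposite. Each keratin had 1 probe set. The altered gene, Dnmt1, had centred log2 values of -0.37, -0.48 and -0.42 in the Dnmt1chip/c tumours, against 0.44, 0.52 and 0.37 in the Dnmt1chip/+ tumours, a difference of -0.87 ± 0.06 (SE; limma, adjusted p = 3.13e-04). The position of its probes in the gene was not known here, and the value is therefore no check of the genotype labels. In a whole tumour, fewer cells of a type and less RNA per cell cannot be told apart.

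The upstream sequences of 4 keratin genes are shown for their CpG sites, the dinucleotides that Dnmt1 methylates, because the genotypes differ in that enzyme. Krt20 and Krt23 are next to each other on chromosome 11 and moved in opposite directions, Krt7 fell and has the most CpG sites of the keratins with a sequence, and Krt18 showed no detected difference. Each line gives the 250 bases before the RefSeq transcription start on the gene's strand, 5′ to 3′, from GRCm38.p6, with CpG in capitals. They are chr11:99438154-99438403 (minus strand), chr11:99493121-99493370 (minus strand), chr15:101412153-101412402 (plus strand) and chr15:102027966-102028215 (plus strand).
Krt20: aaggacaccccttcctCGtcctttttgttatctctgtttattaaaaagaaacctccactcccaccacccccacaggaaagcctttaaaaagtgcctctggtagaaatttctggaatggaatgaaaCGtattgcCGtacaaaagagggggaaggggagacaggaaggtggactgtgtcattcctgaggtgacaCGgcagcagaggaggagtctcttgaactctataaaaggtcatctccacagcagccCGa
Krt23: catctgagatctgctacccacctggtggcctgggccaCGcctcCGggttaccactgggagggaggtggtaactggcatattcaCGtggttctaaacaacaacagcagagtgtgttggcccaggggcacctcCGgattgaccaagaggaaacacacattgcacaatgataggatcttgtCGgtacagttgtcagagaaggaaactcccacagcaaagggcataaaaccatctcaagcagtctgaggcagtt
Krt7: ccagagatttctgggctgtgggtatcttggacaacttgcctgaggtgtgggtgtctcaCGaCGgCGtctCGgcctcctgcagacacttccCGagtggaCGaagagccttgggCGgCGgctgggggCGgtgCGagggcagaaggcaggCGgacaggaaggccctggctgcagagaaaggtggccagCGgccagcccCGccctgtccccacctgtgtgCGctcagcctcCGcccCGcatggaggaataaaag
Krt18: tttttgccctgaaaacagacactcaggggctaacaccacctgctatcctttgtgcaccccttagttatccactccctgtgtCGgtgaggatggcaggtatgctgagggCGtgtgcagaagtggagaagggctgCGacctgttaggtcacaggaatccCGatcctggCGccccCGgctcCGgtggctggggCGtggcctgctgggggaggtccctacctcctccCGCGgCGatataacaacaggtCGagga
Krt20 and Krt23 each have 5 CpG sites in this window, Krt18 has 12 and Krt7 has 16. Such a window was available for 36 of the 52 keratins. Among them the median was 3.5 CpG sites, against a median of 6 over all 32851 windows of the same length, and 32 of the 36 lay at or below that median. The windows of the 5 keratins with a sequence that rose (Krt8, Krt12, Krt13, Krt20 and Krt42) held 2 to 6 CpG sites, those of the 4 that fell (Krt7, Krt14, Krt23 and Krt36) 2 to 16, and those of the 27 that did not pass 1 to 12. These are counts of letters, and methylation of these windows was not measured.

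Of the 52 keratins, 8 rose and 7 fell in the Dnmt1chip/c tumours at an adjusted p under 0.05 (limma, Benjamini-Hochberg over all 19938 genes), and 37 did not pass. The keratins called made up 28.8% of the family, against 32.0% of all genes. By direction, 15.4% of the keratins were higher, against 10.7% of all genes, and 13.5% were lower, against 21.3%. The share called in the family was thus near that of the array, a comparison that does not allow for signal. Genes taken to lie at 8 or above before centring, a mark of signal read from the rounding of the values, were called more often. Of such genes 48.6% passed, against 14.8% of the others, and 13 of the 52 keratins were at 8 or above. The size of the differences was uneven: 3 keratins (Krt20, Krt17 and Krt36) differed by 1 or more on the log2 scale, which 4.04% of all genes did, and the median difference over the 52 was 0.03, against -0.01 over all genes. The groups did not overlap in 20 keratins, 12 higher and 8 lower, among them all 15 that passed; over all genes they did not overlap in 46.4%. For each of these 20 genes the two-sided exact permutation test gave p = 0.1, and no smaller p is possible with 3 tumours a group. The number of keratins that rose fell to 3 without Dnmt1chip/+ replicate 1, to 5 without Dnmt1chip/+ replicate 2 and to 5 without Dnmt1chip/c replicate 2, while 6 to 8 fell whichever tumour was left out.

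**Figure D1:**
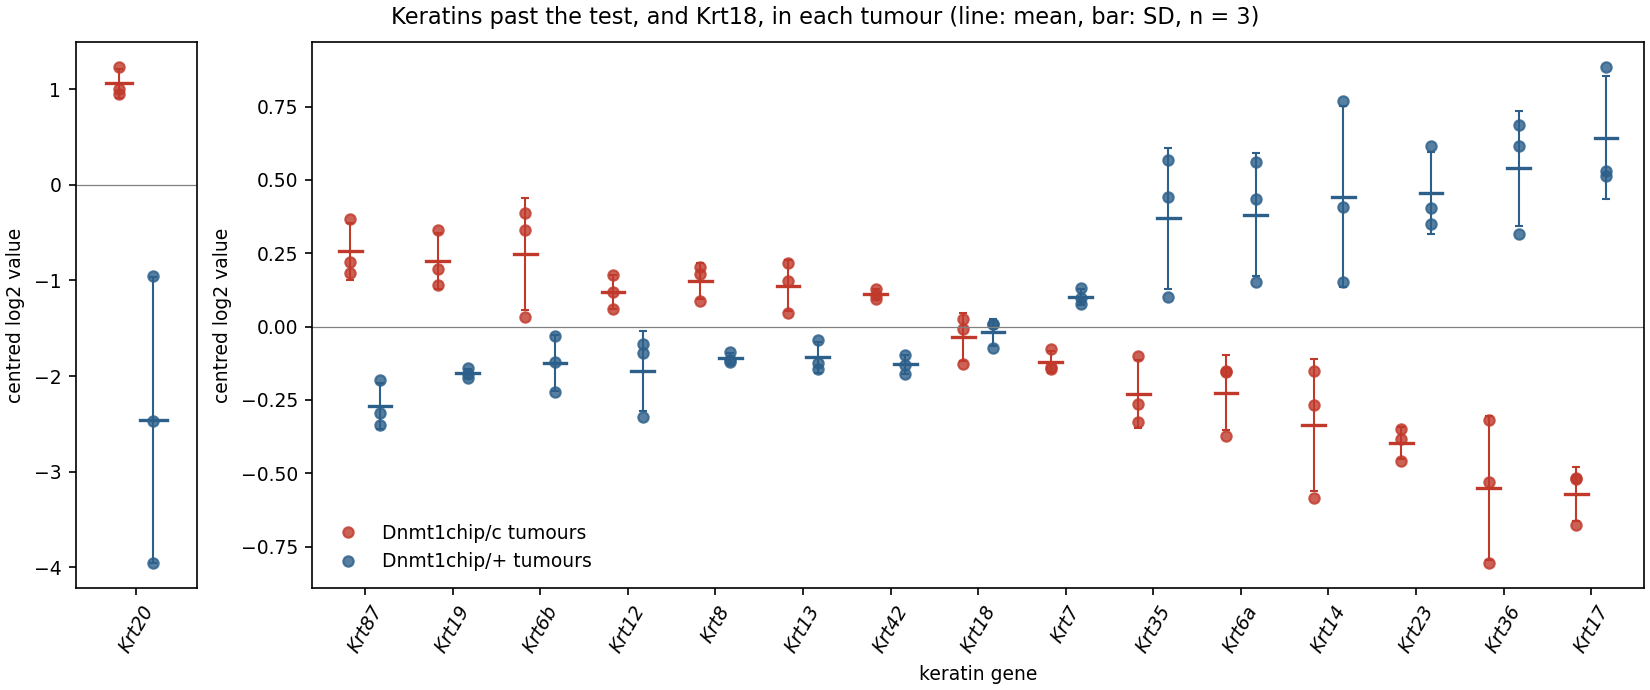
Centred log2 values (vertical axis) of the 15 keratins that passed the test and of Krt18 in the 3 Dnmt1chip/c tumours (red, left of each pair) and the 3 Dnmt1chip/+ tumours (blue), with the mean as a line and the SD as a bar. Krt20 has its own axis, with Dnmt1chip/+ tumours spread between -3.95 and -0.95, and the groups overlap only for Krt18 among the genes drawn.

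Among the 5 simple epithelial keratins 3 rose, 1 fell and 1 did not pass, and the median log2 difference of the class was 0.26. The share called was 80%, against 32.0% of all genes. Of the 5, 4 were at 8 or above before centring, and 3 of those 4 passed, against 48.6% of all such genes. Krt20 had by far the largest difference in the family. Its centred log2 values were 0.95, 1.24 and 1.00 in the Dnmt1chip/c tumours, against -2.47, -3.95 and -0.95 in the Dnmt1chip/+ tumours. The Dnmt1chip/c tumours lay close together (1.07 ± 0.15, SD, n = 3), whereas the Dnmt1chip/+ tumours were widely spread (-2.46 ± 1.5, SD, n = 3). The difference was 3.52 ± 0.66 (SE), 11.5-fold higher (limma, adjusted p = 0.00708), and ranged from 2.78 without Dnmt1chip/+ replicate 2, the lowest tumour, to 4.28 without Dnmt1chip/+ replicate 3, the highest of that group. No detection calls were used, and where low tumours are near background this fold understates the change.

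Krt19, the tailless type I keratin of simple epithelia, had centred log2 values of 0.14, 0.33 and 0.20 in the Dnmt1chip/c tumours, against -0.17, -0.16 and -0.14 in the Dnmt1chip/+ tumours. It rose by 0.38 ± 0.06 (SE), 1.30-fold (limma, adjusted p = 0.00497). Krt8, the main type II keratin of the gut lining, had 0.09, 0.18 and 0.20 in the Dnmt1chip/c tumours, against -0.12, -0.09 and -0.12 in the Dnmt1chip/+ tumours. It rose by 0.26 ± 0.06, 1.20-fold (limma, adjusted p = 0.0117); leaving out Dnmt1chip/+ replicate 1 ended this call. The groups were separate for both genes, and the steps were small beside that of Krt20.

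Krt18, the usual type I partner of Krt8, had centred log2 values of -0.13, 0.03 and -0.01 in the Dnmt1chip/c tumours, against 0.01, 0.01 and -0.07 in the Dnmt1chip/+ tumours. The groups overlapped, and the difference of -0.02 had a 95% interval from -0.17 to 0.13 (limma, adjusted p = 0.873), so a change beyond about that size was not seen. Krt7, the type II keratin of ducts and glands, had -0.14, -0.14 and -0.08 in the Dnmt1chip/c tumours, against 0.08, 0.13 and 0.10 in the Dnmt1chip/+ tumours. It fell by 0.22 ± 0.05 (SE), 1.17-fold (limma, adjusted p = 0.0179), and the call was lost without Dnmt1chip/+ replicate 1 or 2.

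Differences between simple keratins were also taken within each tumour. The centred log2 value of Krt8 minus that of Krt18 was 0.22, 0.15 and 0.21 in the Dnmt1chip/c tumours, against -0.12, -0.10 and -0.05 in the Dnmt1chip/+ tumours, a difference of 0.28 ± 0.03 (SE). Krt19 minus Krt18 was 0.27, 0.30 and 0.20 in the Dnmt1chip/c tumours, against -0.18, -0.17 and -0.07 in the Dnmt1chip/+ tumours, a difference of 0.40 ± 0.05. The groups were separate in both. The pairs were chosen with the values known, so these differences are a description with no test.

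Of 12 general epithelial markers 6 rose, none fell and 6 did not pass, with a median difference of 0.12. All 12 were among the genes taken to lie at 8 or above before centring, a mark of signal read from the rounding of the values, of which 14.8% were higher and 33.8% lower. In either direction 6 of the 12 were called, a share near the 48.6% of those genes. The microvillus protein gene Vil1 rose by 1.02 and the claudin genes Cldn7 and Cldn3 by 0.52 and 0.34, while Epcam, the adhesion molecule of epithelial cells, differed by 0.06 ± 0.06 (SE; limma, adjusted p = 0.453). Another claudin gene, Cldn4, went the other way, by -0.21 ± 0.07 (SE), without passing (limma, adjusted p = 0.0504), although its groups did not overlap. The mean of the 12 centred values lay between 0.08 and 0.17 in the Dnmt1chip/c tumours and between -0.11 and -0.10 in the Dnmt1chip/+ tumours. Mesothelial cells also make Krt8, Krt18 and Krt19, and of 6 mesothelial markers Msln and Upk1b rose (0.67 and 0.43), both calls being lost without Dnmt1chip/+ replicate 1 or 2; the means of the list were 0.04 to 0.26 in the Dnmt1chip/c tumours and -0.16 to -0.00 in the Dnmt1chip/+ tumours. The 2 mesothelial calls made up 33.3% of that list, against 10.7% of all genes called higher. The part of the epithelial and mesothelial markers in the keratin differences was not tested.

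**Figure D2:**
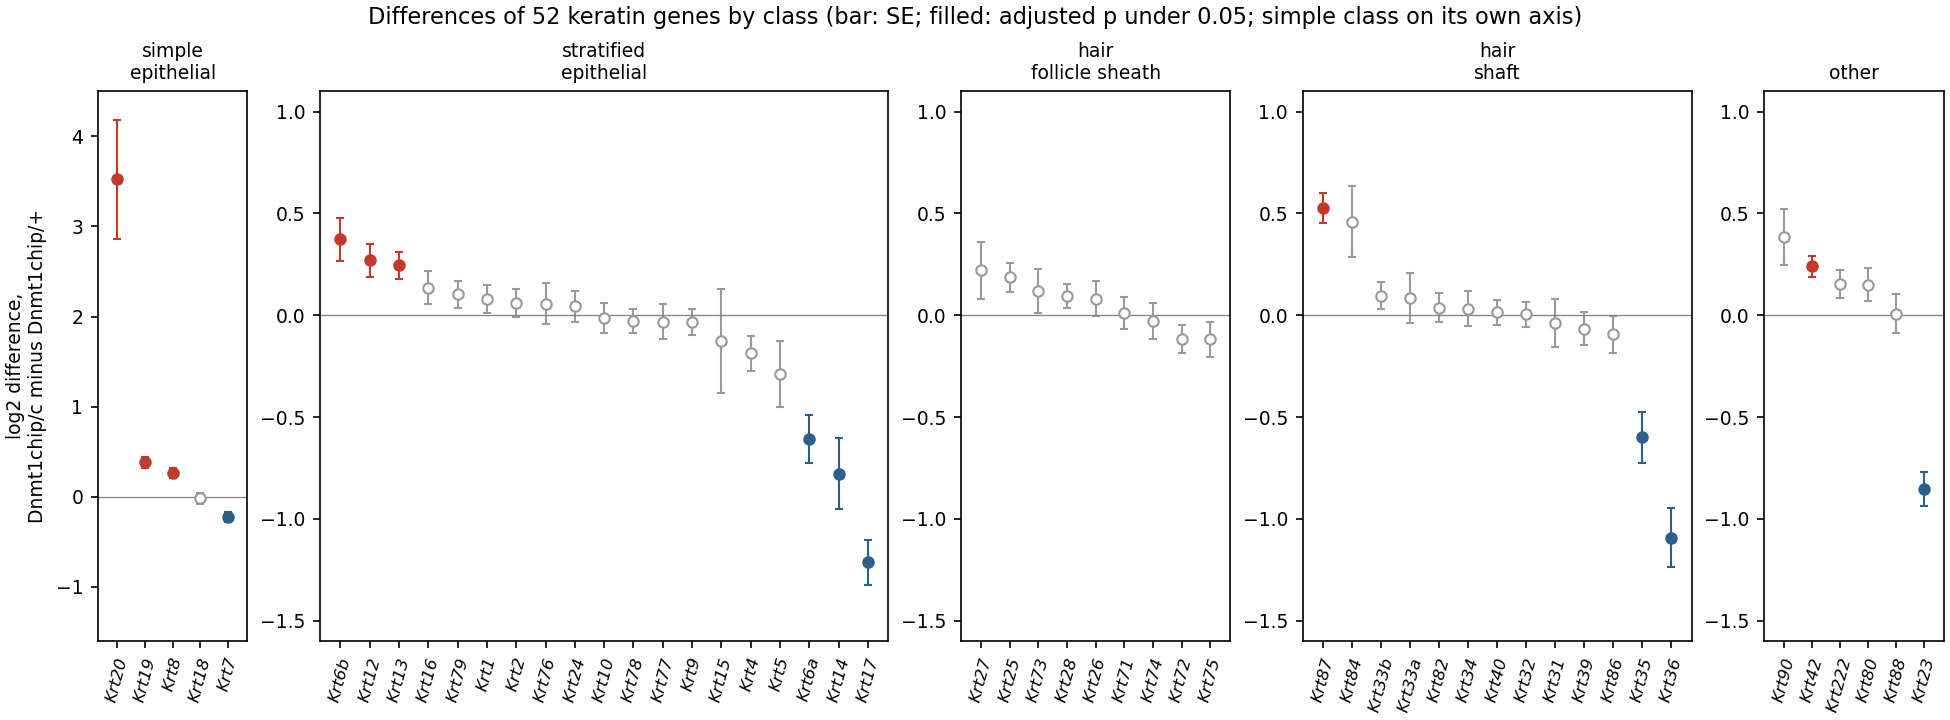
Log2 difference, Dnmt1chip/c minus Dnmt1chip/+ (vertical axis), with its SE for each of the 52 keratins by class. Filled points passed an adjusted p of 0.05 (red higher, blue lower). The simple class has an axis of its own because Krt20 reaches 3.52; the lowest point is Krt17 at -1.21.

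Of the 19 keratins of stratified epithelia 3 rose, 3 fell and 13 did not pass, and the median difference was -0.01. The share called, 31.6%, was near the 32.0% of all genes, but only 3 of the 19 were at 8 or above before centring. These 3 all passed. Over all genes, 48.6% of those at 8 or above passed, and 14.8% of the others. The decreases were the larger. Krt17, a type I keratin of skin appendages that is induced in wounds, had centred log2 values of -0.68, -0.51 and -0.52 in the Dnmt1chip/c tumours, against 0.51, 0.89 and 0.53 in the Dnmt1chip/+ tumours. It fell by 1.21 ± 0.11 (SE), 2.32-fold, with the smallest p of all keratins (limma, adjusted p = 5.94e-04). Krt14, the basal type I keratin, had -0.59, -0.15 and -0.27 in the Dnmt1chip/c tumours, against 0.41, 0.77 and 0.15 in the Dnmt1chip/+ tumours, and fell by 0.78 ± 0.17, 1.71-fold (limma, adjusted p = 0.0140). Krt6a, a type II partner of Krt17 in wounded skin, had -0.15, -0.15 and -0.37 in the Dnmt1chip/c tumours, against 0.15, 0.56 and 0.43 in the Dnmt1chip/+ tumours, and fell by 0.61 ± 0.12, 1.52-fold (limma, adjusted p = 0.00816). These 3 calls held without any single tumour.

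The other partners of these keratins did not pass. Krt5, the type II partner of Krt14, had centred log2 values of -0.09, 0.03 and -0.25 in the Dnmt1chip/c tumours, against -0.01, 0.01 and 0.56 in the Dnmt1chip/+ tumours, so that 1 Dnmt1chip/+ tumour stood above the others (difference -0.29, 95% interval -0.67 to 0.09; limma, adjusted p = 0.228). Krt16, the wound-induced type I keratin whose gene lies between Krt14 and Krt17, differed by 0.14 ± 0.08 (SE; limma, adjusted p = 0.244). Krt15, a basal keratin also used as a marker of hair follicle stem cells, had 0.56, -0.43 and -0.42 in the Dnmt1chip/c tumours, where 1 tumour stood apart from the other two, against -0.07, 0.08 and 0.07 in the Dnmt1chip/+ tumours. Krt14, Krt16, Krt17 and Krt42 are close in sequence, as are Krt6a and Krt6b, and probes of one could bind transcripts of another; this was not tested.

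The 3 stratified keratins that rose did so by little. Krt6b rose by 0.37 ± 0.10 (SE), Krt12, the type I keratin of the cornea, by 0.27 ± 0.08 and Krt13, the type I keratin of oral and oesophageal mucosa, by 0.25 ± 0.07, with limma adjusted p-values of 0.0327, 0.0414 and 0.0275. Each call rested on several tumours: that of Krt6b was lost without Dnmt1chip/c replicate 1 or 2 or Dnmt1chip/+ replicate 1 or 2, that of Krt12 without any tumour except Dnmt1chip/+ replicate 3, and that of Krt13 without Dnmt1chip/c replicate 2 or 3 or Dnmt1chip/+ replicate 1 or 2. Krt6a and its paralogue Krt6b moved in opposite directions: Krt6a minus Krt6b was -0.54, -0.48 and -0.41 in the Dnmt1chip/c tumours, against 0.27, 0.78 and 0.47 in the Dnmt1chip/+ tumours, a separation that follows from those of the single genes. The keratins of the cornified layers, Krt1, Krt2 and Krt10, differed by 0.08, 0.06 and -0.01 and did not pass.

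Markers of squamous epithelium did not move as one with Krt14, Krt17 and Krt6a. Trp63, the transcription factor of basal squamous cells, differed by -0.01 ± 0.08 (SE; limma, adjusted p = 0.944), and the cornified envelope genes Ivl and Lor by -0.12 and -0.28 and the desmosomal cadherin genes Dsg3 and Dsc3 of stratified epithelia by -0.46 and -0.50, none of which passed. None of these 5 genes was among those taken to lie at 8 or above before centring. Of 24 measured genes of squamous differentiation, 8 rose (33.3%, against 10.7% of all genes) and 1 fell (4.17%, against 21.3%). The median difference of the 24 was 0.16. Those that moved most are also made outside squamous tissue: Sprr1a, a small proline-rich protein induced by injury, rose by 1.73, Ly6d, a surface protein shared with lymphocytes, by 1.71, and Sfn, the 14-3-3 sigma protein of epithelial cells, by 1.14, whereas the transcription factor gene Grhl3 fell by 0.67. The other genes of the list that rose were Ovol1 (0.57), Cdsn (0.48), Sprr2d (0.46), Sprr1b (0.33) and Tgm5 (0.33). Among these, only Ovol1 was taken to lie at 8 or above before centring. The mean of the 24 centred values was 0.10 to 0.21 in the Dnmt1chip/c tumours and -0.16 to -0.02 in the Dnmt1chip/+ tumours, opposite to the direction of Krt17.

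Of the 22 hair keratins, 13 of the shaft and 9 of the follicle sheath, 1 rose, 2 fell and 19 did not pass (13.6% called, against 32.0% of all genes), with a median difference of 0.02. Only 4 of the 22 were among the genes taken to lie at 8 or above before centring. Over all genes, 48.6% of those at 8 or above were called, but 14.8% of the others. Krt36, a type I hair keratin, had centred log2 values of -0.32, -0.53 and -0.81 in the Dnmt1chip/c tumours, against 0.69, 0.62 and 0.32 in the Dnmt1chip/+ tumours. It fell by 1.09 ± 0.15 (SE), 2.13-fold (limma, adjusted p = 0.00208). Krt35, its neighbour on the chromosome and a type I keratin of the lower hair shaft, had -0.27, -0.10 and -0.32 in the Dnmt1chip/c tumours, against 0.44, 0.10 and 0.57 in the Dnmt1chip/+ tumours, and fell by 0.60 ± 0.13, 1.52-fold (limma, adjusted p = 0.0111). Krt87, a type II hair keratin, had 0.22, 0.37 and 0.18 in the Dnmt1chip/c tumours, against -0.18, -0.34 and -0.29 in the Dnmt1chip/+ tumours, and rose by 0.53 ± 0.07, 1.44-fold (limma, adjusted p = 0.00242). The calls of these 3 hair keratins held without any single tumour.

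None of the 9 sheath keratins passed; Krt25, at 0.19 ± 0.07 (SE; limma, adjusted p = 0.0916), had the smallest p, and passed after quantile normalization and without Dnmt1chip/c replicate 3. At an unadjusted p under 0.05 it was the only member of that class. Krt84, a type II shaft keratin, differed by 0.46 ± 0.17 (limma, adjusted p = 0.0890). The genes of 8 transcription factors of the hair follicle went different ways: Dlx3 and Lef1 fell by 1.05 and 1.09 and Sox21 by 0.47, Gata3 rose by 1.43, and Hoxc13, a regulator of hair keratin genes, differed by 0.16 ± 0.10 (limma, adjusted p = 0.259). The share of these 8 called was 50%, against 32.0% of all genes, and 2 of them were at 8 or above before centring. The keratin-associated proteins, which fill hair between the keratin filaments, had 5 of 44 genes higher (11.4%, against 10.7% of all genes) and none lower, with Krtap13 at 0.65. The share called higher was near that of the array, but only 7 of the 44 were at 8 or above before centring. Over all genes, 14.8% of those at 8 or above were higher, and 6.36% of the others. The median difference of the Krtap genes was 0.13, with 40 of the 44 above 0. Over all genes not taken to lie at 8 or above, the median difference was 0.03, against -0.12 over those that were.

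Of the 6 remaining keratins, Krt23 fell, Krt42 rose and 4 did not pass (33.3% called, against 32.0% of all genes). Krt23, a type I keratin outside the classical classes, had centred log2 values of -0.38, -0.35 and -0.46 in the Dnmt1chip/c tumours, against 0.40, 0.61 and 0.35 in the Dnmt1chip/+ tumours. It fell by 0.85 ± 0.08 (SE), 1.81-fold (limma, adjusted p = 6.81e-04). Krt42, a type I keratin of the mouse nail, rose by 0.24 ± 0.05, 1.18-fold (limma, adjusted p = 0.0121); leaving out Dnmt1chip/+ replicate 1 ended this call. The type II keratin Krt90 differed by 0.39 ± 0.14 without passing (limma, adjusted p = 0.0723); it passed after quantile normalization (0.0424) and among genes at 8 or above before centring (0.0492).

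Dnmt1chip/+ replicate 2 had the lowest Krt20 value of the 6 tumours and the highest values of Krt7, Krt6a, Krt14, Krt17 and Krt23. It was not the highest for Krt35 or Krt36. These ranks rest on 1 tumour and were read off after the values were seen.

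By filament type, 5 of 28 type I keratins rose and 5 fell, and 3 of 24 type II keratins rose and 2 fell. The shares called were 35.7% and 20.8%, against 32.0% of all genes. The 3 keratins with a difference of 1 or more were all type I. The largest type II difference was that of Krt6a, at -0.61.

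The genes lie in 2 clusters, with 27 of the measured keratins on chromosome 11 and 24 on chromosome 15, in the order of the RefSeq table for GRCm38.p6; Krt74 was left out of this order because it is not listed there as protein-coding. Calls in both directions were found in each cluster: 5 higher and 5 lower on chromosome 11, 3 higher and 2 lower on chromosome 15. Among 49 pairs of consecutive keratins, both genes passed in 7. In 5 of these 7 the directions were opposite (Krt20 and Krt23, Krt36 and Krt13, Krt17 and Krt42, Krt7 and Krt87, Krt6b and Krt6a), and in 2 they were the same (Krt12 and Krt20, both higher, and Krt35 and Krt36, both lower). No other protein-coding gene lies between the members of these 7 pairs in that table. Consecutive pairs were not counted over all genes, so the counts of 5 and 2 have no background. Krt20 minus Krt23 was 1.34, 1.59 and 1.46 in the Dnmt1chip/c tumours, against -2.88, -4.57 and -1.30 in the Dnmt1chip/+ tumours, which again follows from the single genes. Krt8 and Krt18, a pair that is expressed together in simple epithelia, are consecutive on chromosome 15, with Krt8 higher and Krt18 at -0.02.

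**Figure D3:**
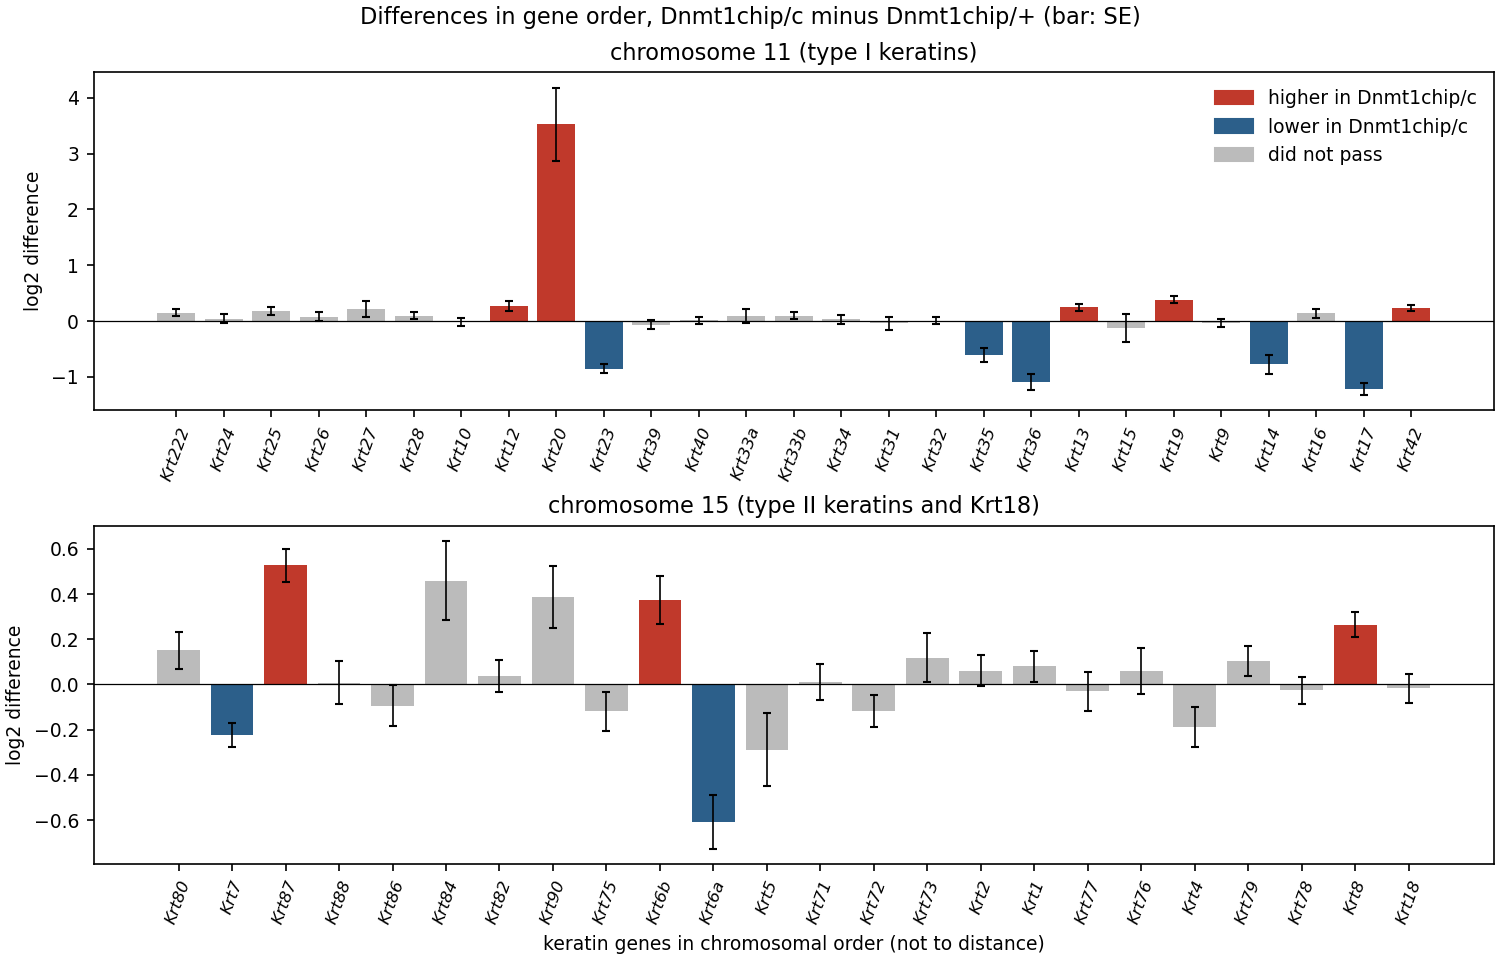
Log2 difference, Dnmt1chip/c minus Dnmt1chip/+ (vertical axes, with a different scale in each panel), with its SE for the keratins in chromosomal order, not drawn to distance. Red bars were higher, blue bars lower and grey bars did not pass; Krt20 at 3.52 stands next to Krt23 at -0.85.

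Of 11 measured regulators of keratin genes, 5 rose and 1 fell, with a median difference of 0.16. The share called was 54.5%, against 32.0% of all genes. Of the 11, 9 were at 8 or above before centring, where 48.6% of all genes were called. Cdx2, the intestinal homeobox factor known to activate Krt20 in human cells, rose by 3.49 and the related Cdx1 by 0.75. The part of Cdx2 in the Krt20 difference was not tested. Klf4, a factor of differentiated surface cells, rose by 1.54 and Hnf4a, a nuclear receptor of the gut epithelium, by 0.60, while Grhl2 fell by 0.33. Letters of a core Cdx motif, TTTAT on either strand, were in 29 of the 36 keratin windows (80.6%), against 37.3% of all windows. The reverse strand of this motif, ATAAA, is contained in the TATA box TATAAA, which was in 17 of the 36 (47.2%), against 12.4% of all windows, and in 20 of the 36 a match to TTTAT began 40 to 20 bases before the start, against 6.32% of all windows. The window of Krt20 has 2 matches to TTTAT, 1 of them inside its TATAAA, that of Krt23 has 1, that of Krt7 has 1, and those of Krt8, Krt14, Krt18, Krt36, Krt42, Krt79 and Krt90 have none, so keratins that rose, that fell and that did not pass are found among those without a match. A match describes letters and does not show binding.

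Keratin filaments end at desmosomes, which join cells, and at hemidesmosomes, which join cells to the matrix. Of 13 measured desmosome genes 5 rose, 2 fell and 6 did not pass, with a median difference of 0.05. The share called was 53.8%, against 32.0% of all genes. Of the 13, 9 were at 8 or above before centring, where 48.6% of all genes were called. The cadherin genes of simple epithelia rose, Dsc2 by 0.93 ± 0.07 (SE) and Dsg2 by 0.64 ± 0.07, and so did Perp, a tetraspan protein of desmosomes, by 0.74, and the plakophilin gene Pkp3 by 0.40. Another plakophilin gene, Pkp1, fell by 0.38 ± 0.08 (SE; limma, adjusted p = 0.0111). Dsg4, the desmosomal cadherin of hair, had centred log2 values of -0.84, -0.89 and -0.997 in the Dnmt1chip/c tumours, against 1.01, 1.06 and 0.84 in the Dnmt1chip/+ tumours. Its fall of 1.88 ± 0.08, 3.67-fold (limma, adjusted p = 6.13e-05), was larger than that of any keratin. Dsp, whose product desmoplakin ties keratin to the desmosome, differed by 0.12 ± 0.08 and did not pass.

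On a list of 11 plakin genes, keratin linkers and genes named for keratins or keratinocytes, 6 rose, 1 fell and 4 did not pass, with a median difference of 0.31. All 11 were at 8 or above before centring, and 63.6% were called, against 48.6% of all such genes. By direction, 54.5% were higher, against 14.8% of such genes, and 9.09% lower, against 33.8%. The plakin genes Plec and Dst rose by 0.73 and 0.72, and Pof1b, an actin-binding protein of epithelial junctions, rose by 0.85, whereas the plakin gene Ppl fell by 0.40. The 6 include Krtcap2 (0.39) and Krtcap3 (0.33), which are named for keratinocytes and are not known as keratin linkers; Krtcap2 encodes a subunit of the enzyme that glycosylates proteins. Of 6 hemidesmosome genes the integrin genes Itga3 and Itgb4 rose by 0.70 and 0.31, and Col17a1 and Cd151 fell by 0.35 and 0.33. These 4 made up 66.7% of that list, in which 5 of the 6 genes were at 8 or above before centring. The calls of Itgb4, Col17a1 and Cd151 were lost without Dnmt1chip/+ replicate 1, and that of Col17a1 also without Dnmt1chip/+ replicate 3.

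**Figure D4:**
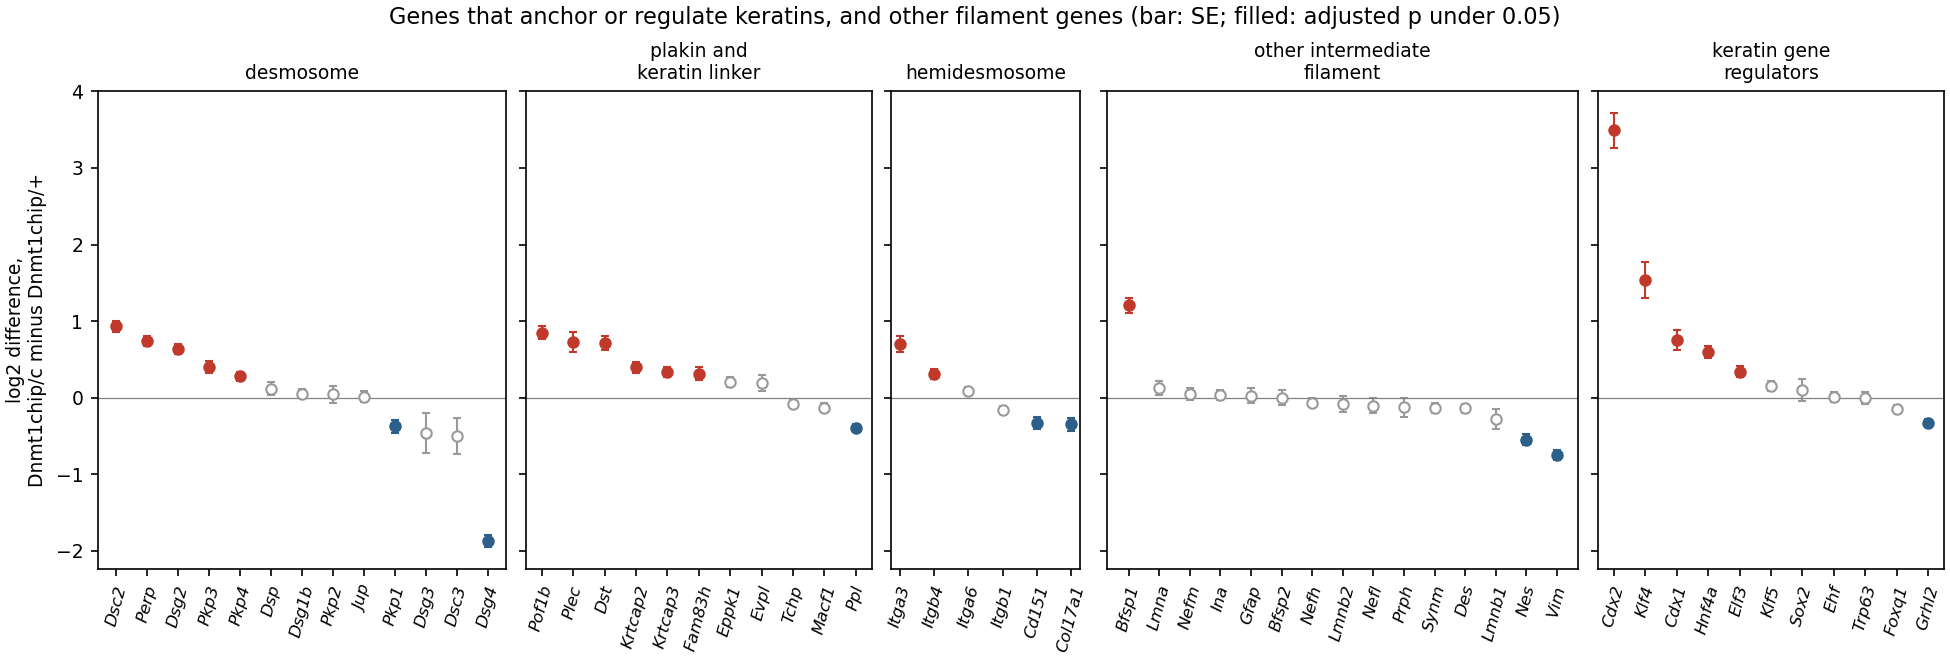
Log2 difference, Dnmt1chip/c minus Dnmt1chip/+ (vertical axis), with its SE for genes that anchor or regulate keratins and for other intermediate filament genes. Filled points passed an adjusted p of 0.05 (red higher, blue lower). Cdx2 at 3.49 and Dsg4 at -1.88 lie at the ends of the range.

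Among 15 other intermediate filament genes 1 rose, 2 fell and 12 did not pass (20% called, against 32.0% of all genes). Vim, the vimentin gene of mesenchymal cells, had centred log2 values of -0.32, -0.38 and -0.45 in the Dnmt1chip/c tumours, against 0.36, 0.32 and 0.42 in the Dnmt1chip/+ tumours, and fell by 0.75 ± 0.06 (SE), 1.68-fold (limma, adjusted p = 4.33e-04). Nes, the nestin gene, fell by 0.55 and Bfsp1, which encodes the lens filament protein filensin, rose by 1.21. The muscle gene Des differed by -0.14 and the lamin gene Lmnb1 by -0.28, and neither passed.

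Markers of other cells were also measured, and their counts stand against 21.3% of all genes and 33.8% of the genes at 8 or above called lower. Of 10 fibroblast markers 6 fell and 1 rose (Fap, 0.33), with Pdgfrb at -1.22 and Dcn at -0.72, and the mean of the list was -0.57 to -0.05 in the Dnmt1chip/c tumours and 0.07 to 0.46 in the Dnmt1chip/+ tumours. The call of Dcn was lost without Dnmt1chip/c replicate 3 or Dnmt1chip/+ replicate 1, and that of Col1a1 (-0.64) without Dnmt1chip/c replicate 2 or 3 or Dnmt1chip/+ replicate 2 or 3. Of 10 smooth muscle markers 6 fell and none rose, with means of -0.37 to -0.12 in the Dnmt1chip/c tumours and 0.14 to 0.35 in the Dnmt1chip/+ tumours. The call of Acta2 (-0.93) was lost without Dnmt1chip/c replicate 2 or 3 or Dnmt1chip/+ replicate 2 or 3. Of 8 endothelial markers 5 fell and 1 rose (Tek, 0.55), with means of -0.42 to -0.05 in the Dnmt1chip/c tumours and 0.06 to 0.19 in the Dnmt1chip/+ tumours. Leaving out any tumour except Dnmt1chip/c replicate 1 ended the call of Tie1 (-0.22). That of Eng (-0.80) was lost without Dnmt1chip/c replicate 3. Of 8 macrophage markers 4 fell, calls that were each lost without any tumour except Dnmt1chip/c replicate 1, with means of -0.85 to 0.01 in the Dnmt1chip/c tumours and -0.02 to 0.50 in the Dnmt1chip/+ tumours. None of 7 T cell markers passed in limma; 1 of them, Cd8a, had an unadjusted p under 0.05 (difference 0.37, adjusted p = 0.0841), and it passed without Dnmt1chip/c replicate 3, while Cd3g passed without Dnmt1chip/c replicate 1. Centred values keep no level, so whether a marker is near 0 could not be read. Dnmt1chip/c replicate 1 was the highest of its group in the fibroblast, smooth muscle, endothelial and macrophage lists. The part of these cells in the keratin differences was not tested.

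The signal behind a keratin could be read in part from the rounding of the table. Values are multiples of a coarse or a fine step, and a gene on the coarse step was taken to have had all 6 log2 values at 8 or above before centring, an inference that a dimmer gene can meet by chance. This held for 13 of the 52 keratins, of which 9 passed (69.2%), against 48.6% of all such genes, and for 6 of the other 39 (15.4%), against 14.8% of all the others. The 13 were Krt7, Krt8, Krt18 and Krt19 of simple epithelia, Krt13, Krt14 and Krt17 of stratified epithelia, Krt33b, Krt36, Krt82 and Krt87 of hair, and Krt23 and Krt90. Krt20 was not among them, and neither were Krt6a and Krt35, so these 3 had at least 1 tumour taken to lie below that mark.

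**Figure D5:**
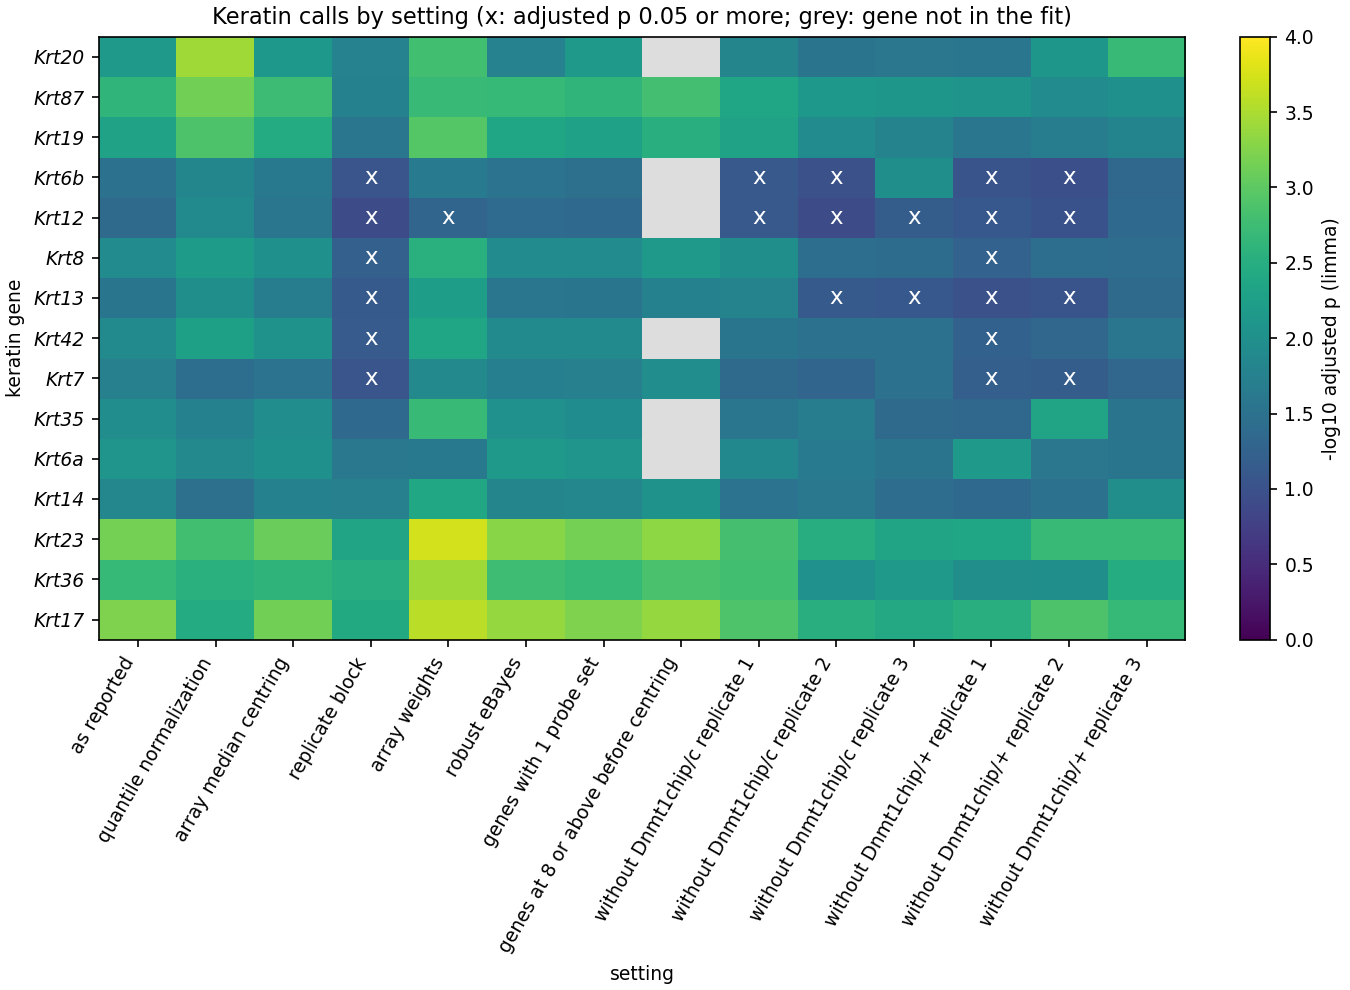
Adjusted p from limma as -log10 (colour) for the 15 keratins that passed (vertical axis) in the fit as reported and in the alternative settings (horizontal axis). A cross marks an adjusted p of 0.05 or more and grey a gene that the filter left out; Krt20, Krt87, Krt19, Krt35, Krt6a, Krt14, Krt23, Krt36 and Krt17 have no cross.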

How the data were processed

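Per the labels' protocols, total RNA of the 6 tumours came from an RNeasy kit and was labelled with biotin; some descriptions name the Affymetrix mouse Gene 1.0 ST array. The deposited values are 1 per probe set and array for 28856 probe sets and are treated as log2; the base was inferred from their range. For the authors' normalization and summary method, the status is: not given in the sources used here. Every probe set is centred on its median over the arrays (within 1e-06 of 0 in 100% of rows), so no level is kept and low signal was filtered only through the rounding step described above. Background correction could not be varied.

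The 21789 probe sets with 1 gene symbol in the platform annotation were averaged per gene. Another 1621 with several symbols, none with a keratin, and 5446 with none were left out. limma's lmFit and eBayes (no trend, 3.02 prior degrees of freedom) were run on all 6 tumours, two-sided, with Benjamini-Hochberg adjustment over 19938 genes and 20 assignments in exact permutation tests. The fit was tested on simulated data with independent noise and far fewer changed genes than were called here. That test checks the code and gives no support to the calls. The 5 keratin classes, 14 other lists and all members were chosen with earlier results of these data known. Genes were named by a rule: simple keratins, keratins that passed or differed by 0.5 or more, up to 4 per other class and 5 per list by smallest p, and Vim, Dsp, Trp63, Cdx2, Hnf4a, Klf4 and Epcam. Outside it, Krt1, Krt2, Krt5, Krt10, Krt15, Krt16, Krt33b, Krt74, Krt79, Krt82, Krtap13, Krtcap3, Cdsn, Cldn4, Dsc3, Dsg3, Ivl, Lor, Pkp1, Sprr1b, Sprr2d and Tgm5 are named, chosen after their values were seen. Alternatives were quantile normalization, array median centring, the replicate block, array weights, robust eBayes, genes with 1 probe set, genes at 8 or above before centring, other thresholds and leaving out each tumour. Quantile normalization was applied to the centred values, so another normalization of the signal itself could not be tried. Gene names and upstream sequences are from RefSeq (GRCm38.p6). Arrays carry no counts, and their number limits the precision. R 4.3.3, limma 3.58.1, Python 3.11 and matplotlib 3.10.9 were used.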

Additional observations from a re-analysis of the deposited data

How the results depend on the processing

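Direction did not change in any of the 15 keratin calls under quantile normalization, array median centring, array weights, robust eBayes, the filters, the replicate block or leaving out any tumour. In 9 of them (Krt20, Krt19, Krt87, Krt17, Krt14, Krt6a, Krt23, Krt35 and Krt36) the call held in every alternative in which the gene was fitted at a threshold of 0.05; the other 6 lost it in at least 1. The keratins that rose numbered 8 as reported, 5 among genes at 8 or above before centring, 3 at an adjusted p under 0.01, 11 at one under 0.1, 11 under quantile normalization, which added Krt25, Krt90 and Krt222, and 3 to 8 without 1 tumour; those that fell numbered 7, 4 at 0.01 and 6 to 8 without 1 tumour. The count of all genes called higher was 2124, 1192 at 0.01 and 1407 to 2323 without 1 tumour, and that of all genes called lower 4256, 2319 at 0.01 and 2792 to 4270 without 1 tumour. The filter on genes at 8 or above tests fewer genes. The median difference of the simple keratins (0.26) was 0.32 under quantile normalization and 0.12 among genes at 8 or above, where Krt20 is left out; that of the stratified keratins (-0.01) was -0.78 there, over 3 genes, and -0.039 to 0.039 without 1 tumour. That filter shifts the median of all genes by -0.11. With the replicate number as a block, 4 keratins rose and 6 fell, and over all genes 1543 and 2714; tumours of the same number correlated at -0.29, -0.31 and -0.22 in their deviations, none best with its own number, so the numbers share no pairing. The block ended the calls of Krt6b, Krt12, Krt8, Krt13, Krt42 and Krt7 and added that of Krt84 (limma, adjusted p = 0.0344). Array weights ended that of Krt12. The cause of these changes was not tested.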
